A study of Mus musculus with 17 samples.

Results

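Of 181187 H3K27ac peaks on the autosomes of mouse hypothalamus, 6253 (3.45%, 95% Wilson interval 3.37 to 3.54) had their summit more than 200 kb outside the span of every protein-coding gene. These gene desert peaks were chosen by distance alone, from each peak's start and summit offset and the gene spans of RefSeq on GRCm38.p6, the assembly that mm10 denotes. No peak height or width entered the choice. The whole list held 183678 peaks, sex chromosomes included. It was made from 3 bulk CUT&Tag samples of dissected hypothalamus, titled as biological replicates, which were incubated with an antibody against H3K27ac. The series also held 7 Paired-Tag DNA and 7 Paired-Tag RNA sub-libraries of hypothalamus, not analysed here. Strain, age, sex and treatment were not given in the sources used here, and the design held no second condition in the bulk samples. One list was given for the 3 samples together, so it has no value per sample. The spread between samples was not analysed here, and no test of a difference was made. In bulk tissue, a mark in fewer cells and less of it per cell cannot be told apart. Of 15 hypothalamic peptide genes used to check the labelled tissue, 13 carried H3K27ac at a gene end, counting peaks up to 1 kb from it, while Gnrh1 and Pmch did not. Of all 20560 autosomal coding genes, 71.3% had a peak that near an end, so this is a weak check of the tissue.

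Gene deserts are long stretches between protein-coding genes. They often lie beside genes for developmental regulators and for neuronal adhesion proteins, and some hold enhancers that act on promoters far away. Acetylation of lysine 27 on histone H3 marks active enhancers and promoters, and CUT&Tag maps it by tethering the Tn5 transposase to the antibody so that marked chromatin is cut and tagged in place. A desert without coding genes is not without transcripts, since long noncoding RNA (lncRNA) genes and microRNA hairpins lie in many of them. Here the label held for coding genes only: when every annotated gene, noncoding ones included, bounded the deserts, 216 peaks were left. The fold given below is the authors' fold enrichment of a peak, a linear ratio, and the −log10 q is the authors' measure of its significance. Both belong to single peaks of this list. Positions are 1-based on mm10.

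The start windows of 6 lncRNA genes overlapped by desert peaks are printed because peaks at such starts stood higher than the other desert peaks. The first 4 carried the highest folds among lncRNA starts. The starts of Mir100hg and Mir99ahg, host genes of microRNA clusters, were added after their values were seen. Each window has 300 bases around an annotated start and is given 5′ to 3′ on the gene's strand, from RefSeq on GRCm38.p6. Capitals mark any match, on either strand, to the 11 short motifs searched.
Gm32810 start, chr1:112416869-112417168, minus strand: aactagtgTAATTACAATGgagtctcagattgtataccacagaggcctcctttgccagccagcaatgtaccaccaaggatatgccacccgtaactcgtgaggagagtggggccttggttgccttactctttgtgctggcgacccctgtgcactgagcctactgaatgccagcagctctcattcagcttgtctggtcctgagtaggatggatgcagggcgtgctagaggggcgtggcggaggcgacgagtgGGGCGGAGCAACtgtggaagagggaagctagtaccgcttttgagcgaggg
Celrr start, chr1:121087155-121087454, plus strand: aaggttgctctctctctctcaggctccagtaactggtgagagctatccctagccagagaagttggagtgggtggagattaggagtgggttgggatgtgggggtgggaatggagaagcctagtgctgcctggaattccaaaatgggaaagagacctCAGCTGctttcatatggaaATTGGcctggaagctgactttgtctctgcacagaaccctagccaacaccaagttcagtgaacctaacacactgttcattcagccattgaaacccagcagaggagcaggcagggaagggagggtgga
Gm44689 start, chr7:71706028-71706327, minus strand: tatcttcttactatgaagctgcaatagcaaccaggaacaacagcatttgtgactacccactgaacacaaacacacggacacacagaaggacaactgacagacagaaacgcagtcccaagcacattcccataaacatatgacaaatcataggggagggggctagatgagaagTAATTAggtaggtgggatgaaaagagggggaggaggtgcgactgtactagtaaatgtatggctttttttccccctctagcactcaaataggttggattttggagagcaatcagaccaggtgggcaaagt
Gm32237 start, chr3:56698172-56698471, plus strand: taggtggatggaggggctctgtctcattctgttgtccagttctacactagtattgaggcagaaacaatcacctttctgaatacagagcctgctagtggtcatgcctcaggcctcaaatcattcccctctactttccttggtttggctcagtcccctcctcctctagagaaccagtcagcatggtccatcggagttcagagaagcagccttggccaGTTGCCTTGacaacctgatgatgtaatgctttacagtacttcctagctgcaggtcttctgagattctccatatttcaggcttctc
Mir100hg start, chr9:41474643-41474942, plus strand: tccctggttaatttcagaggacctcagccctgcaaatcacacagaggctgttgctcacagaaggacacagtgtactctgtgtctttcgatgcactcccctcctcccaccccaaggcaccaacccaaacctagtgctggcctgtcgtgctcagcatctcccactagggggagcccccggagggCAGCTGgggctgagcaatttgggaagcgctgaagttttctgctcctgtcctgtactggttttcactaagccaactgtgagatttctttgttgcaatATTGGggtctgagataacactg
Mir99ahg start, chr16:77329078-77329377, plus strand: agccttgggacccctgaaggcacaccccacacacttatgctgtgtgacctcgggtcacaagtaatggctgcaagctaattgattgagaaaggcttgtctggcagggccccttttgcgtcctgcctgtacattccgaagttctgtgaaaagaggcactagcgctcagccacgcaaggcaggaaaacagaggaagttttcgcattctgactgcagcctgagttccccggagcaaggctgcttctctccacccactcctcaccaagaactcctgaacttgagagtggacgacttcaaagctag

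The peak over the Gm32810 start, chr1:112416409-112417597, had a fold of 15.7, and its window held 11 CpG dinucleotides with a GC content of 56.0%. Its capitals mark a homeodomain match, a SOX match, a GC-box and an RFX match, some of them overlapping. The Celrr window had no CpG and a GC content of 52.0%, and its peak had a fold of 14.4. Its capitals mark an E-box and a CCAAT box. The Gm44689 peak reached 14.3 and the Gm32237 peak 14.2, over windows with 3 and 1 CpG. Folds at the printed starts of Mir100hg and Mir99ahg were 8.91 and 7.50. For a gene with several start windows, the one under the highest peak was taken. The printed Mir100hg start lies well inside that gene's annotated span, chr9:41376526-41615185, and is not its first base. The Mir99ahg window held none of the motifs searched. High folds thus lay over windows with many CpG and over windows with few.

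Mature microRNAs from the Mir344 array and from 2 hairpins in Mir100hg are printed because desert peaks lay directly on their hairpins. MicroRNAs are short RNAs that lower the output of messenger RNAs paired with their seed. Sequences are from RefSeq on GRCm38.p6, and capitals mark the seed, bases 2 to 8.
mmu-miR-344-5p, from Mir344, chr7:61877819-61877844, minus strand: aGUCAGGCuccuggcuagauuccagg
mmu-miR-344c-5p, from Mir344c, chr7:61837363-61837385, minus strand: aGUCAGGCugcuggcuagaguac
mmu-miR-344b-5p, from Mir344b, chr7:61790556-61790578, minus strand: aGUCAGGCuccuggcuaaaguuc
mmu-miR-344g-5p, from Mir344g, chr7:61982335-61982355, minus strand: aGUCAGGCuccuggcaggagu
mmu-miR-344d-1-5p, from Mir344d-1, chr7:61683166-61683189, minus strand: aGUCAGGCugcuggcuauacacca
mmu-miR-344d-3-5p, from Mir344d-3, chr7:61726296-61726318, minus strand: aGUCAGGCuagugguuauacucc
mmu-miR-344d-2-5p, from Mir344d-2, chr7:61685318-61685341, minus strand: aGUCUGGUugcuggcuauauucca
mmu-miR-344f-5p, from Mir344f, chr7:62046225-62046246, minus strand: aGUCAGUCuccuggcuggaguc
mmu-miR-344i, from Mir344i, chr7:62085281-62085300, minus strand: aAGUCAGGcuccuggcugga
mmu-miR-100-5p, from Mir100, chr9:41531437-41531458, plus strand: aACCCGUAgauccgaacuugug
mmu-miR-125b-5p, from Mir125b-1, chr9:41581940-41581961, plus strand: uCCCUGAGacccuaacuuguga

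The Mir344 hairpins formed the one long run of microRNA genes with desert peaks. The array has 13 hairpins over 402 kb of chromosome 7, between Gm51483 and Ndn, the imprinted gene for necdin. Of these hairpins, 10 were overlapped by a desert peak. Folds over Mir344, Mir344i, Mir344d-3 and Mir344-2 were 6.79, 6.07, 5.78 and 5.71. Mir344c and Mir344g each had 4.91, Mir344b 4.70, Mir344d-2 4.26, Mir344f 3.54 and Mir344d-1 3.03. The array took 48.2% of its 835 kb desert and, with 2 kb on either side, held 20 of its 22 peaks. The 10 peaks that overlapped a hairpin had a median fold of 4.91, and 8 of them were at or above 4.22, the upper quartile of all autosomal peaks. The other 10 peaks of the array had a median of 3.21, and 2 of them reached that level. Peaks on hairpins were thus the higher ones in the array by median. Both groups overlapped, since the peak over Mir344d-1 had 3.03 and a peak off the hairpins had 5.20. The 3 hairpins without a peak, Mir344e, Mir344h-1 and Mir344h-2, lay 9.03, 7.49 and 4.48 kb from the nearest one. In the 5p arms, the seed GUCAGGC was shared by 7 of the hairpins with a peak, and Mir344d-2 and Mir344f carried GUCUGGU and GUCAGUC. The tenth, Mir344i, has a single listed mature sequence, with the seed AGUCAGG. Seeds of Mir344e, Mir344h-1 and Mir344h-2 were not compared, so no link between seed and mark can be read from this. Mir344 and Mir344-2 have the same mature sequences. How reads shared by such copies were placed is not given in the sources used here, so each copy's own value is uncertain.

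Across all deserts, 16 of 44 microRNA hairpins (36.4%) had a desert peak within 2 kb, against 514 of 919 autosomal hairpins (55.9%) with any peak. These 44 hairpins lay in 26 deserts, and 6 were in deserts without a peak. Mir100 was overlapped by a peak with a fold of 9.83, the highest at a desert hairpin. Mir125b-1, in the same host gene, had 5 desert peaks within 2 kb, the highest at 4.44, and the one over the hairpin had 3.51. Mirlet7a-2, between those hairpins, lay 3.55 kb from the nearest peak. Peaks over Mir802, over Mir1251 inside the lncRNA gene Rmst, and over Mir6390 had folds of 5.96, 3.97 and 2.58. Mir135a-2 had a peak 1508 bases away with a fold of 2.82. Mir99a and Mirlet7c-1, beyond the annotated end of Mir99ahg, lay 2084 and 2805 bases from a peak and fell outside the 2 kb window.

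**Figure D1:**
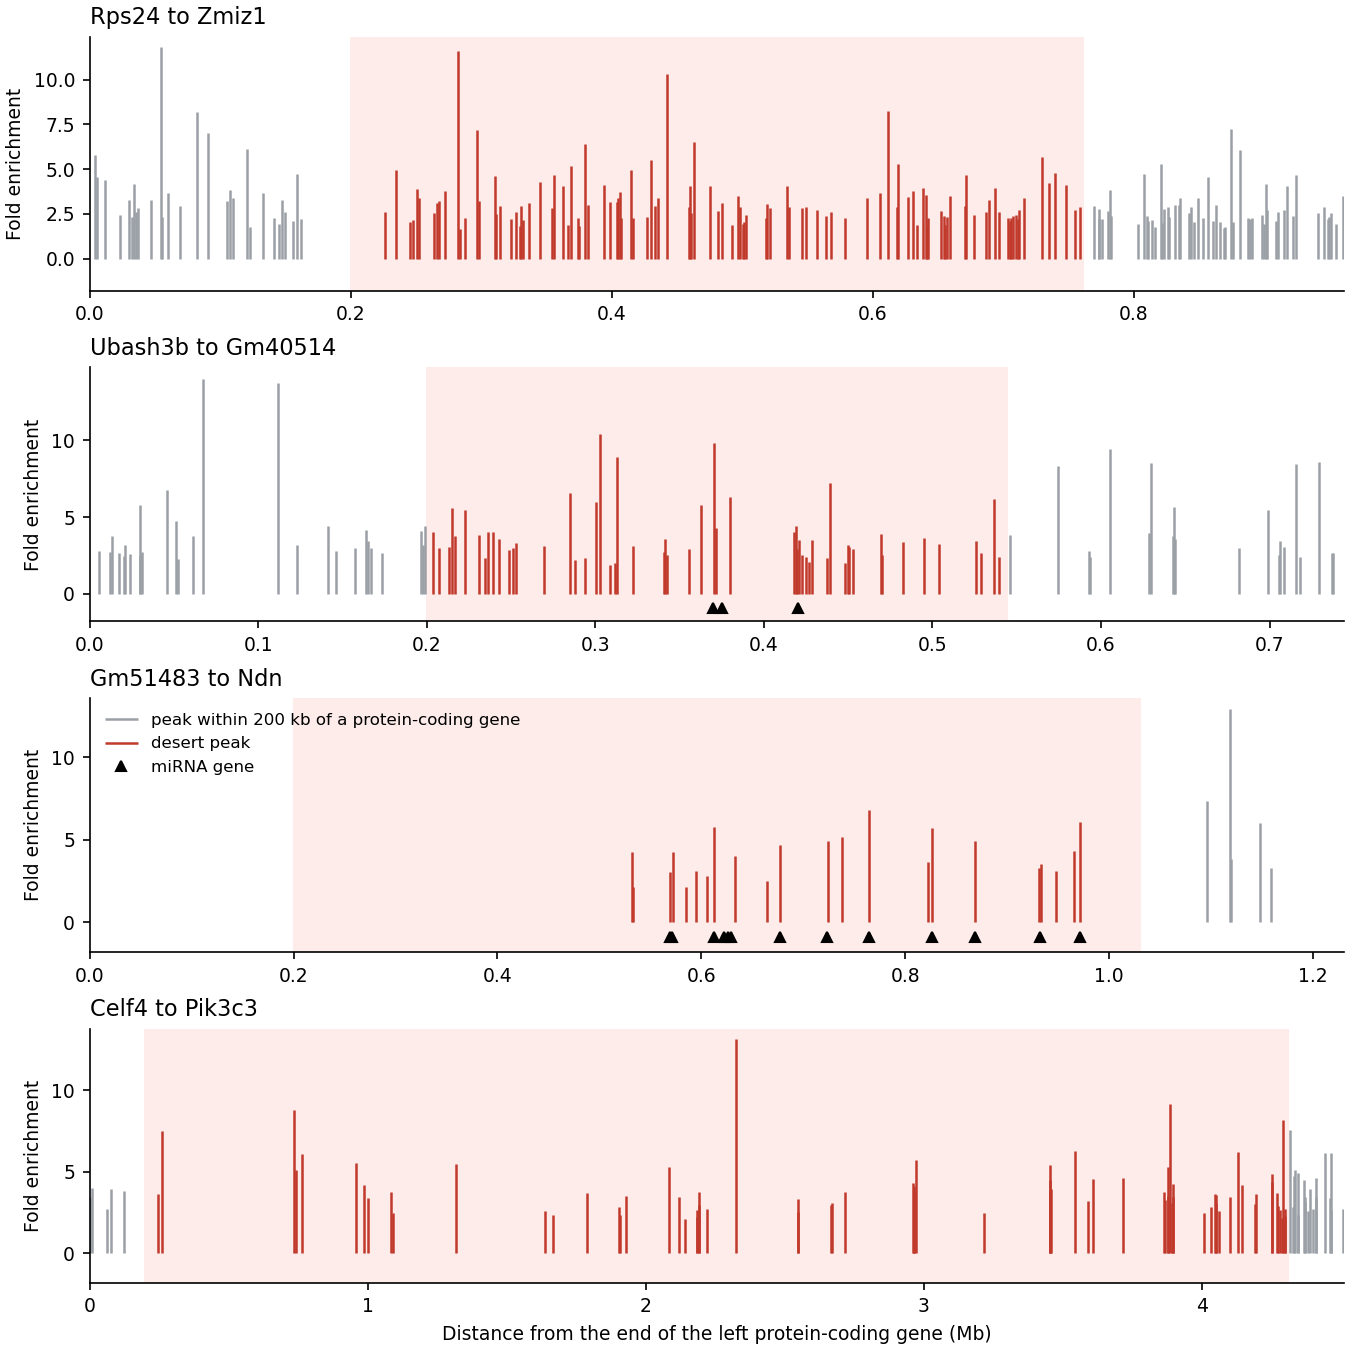
Peaks by distance (x axis, from the end of the left gene) and fold enrichment (y axis) in 4 gaps between coding genes, where shading marks the desert, more than 200 kb from both genes, and ticks mark microRNA hairpins. In Gm51483–Ndn the 22 desert peaks gather along the 13 hairpins, Rps24–Zmiz1 is filled by 109 desert peaks, and the 72 of Celf4–Pik3c3 run across the gap; the Gm51483–Ndn and Ubash3b–Gm40514 gaps were chosen after their values were seen.

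Deserts were thinly marked, and the more so the farther a position lay from coding genes. They made up 19.1% of the 2402 Mb annotated span of the autosomes, or 458 Mb in 730 stretches, and held 13.7 peaks per Mb. The rest of the span held 90.0 per Mb, a ratio of 0.152 that lay below 1 in all 19 autosomes. Inside coding genes the density was 126 peaks per Mb. It was 61.3 up to 50 kb away, 40.1 from 50 to 200 kb, 20.8 from 200 to 500 kb, 6.04 from 500 kb to 1 Mb and 1.42 beyond 1 Mb. The bases covered by peaks went the same way, from 8.64% inside genes to 1.31% at 200 to 500 kb and 0.0696% beyond 1 Mb. Of the 93 peaks beyond 1 Mb, 32 lay in the single desert between Celf4 and Pik3c3. Without that desert the density beyond 1 Mb was 0.966 per Mb, and the other 61 peaks lay in 25 deserts. Assembly gaps inside deserts were not known and count as desert length. Median distance of the desert peaks from a coding gene was 300 kb.

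**Figure D2:**
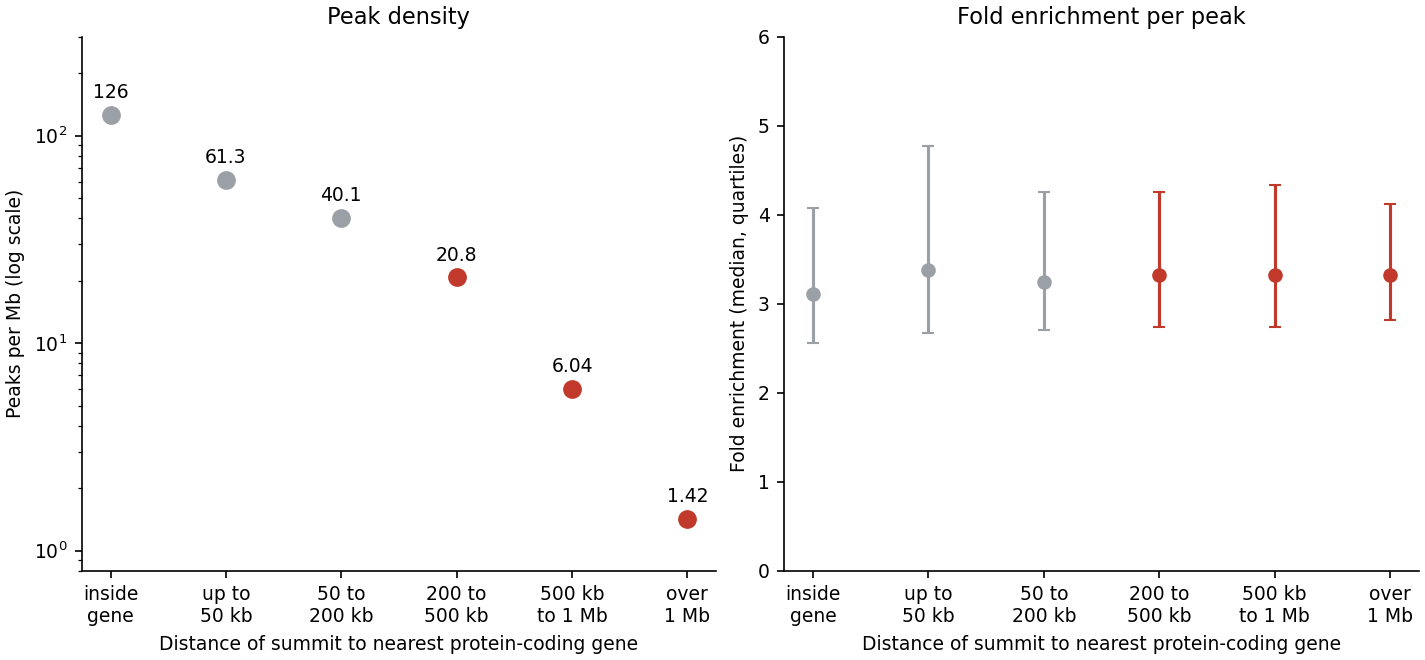
Peaks per Mb and median fold enrichment by distance of the summit from the nearest coding gene, over all autosomal peaks. Density goes from 126 per Mb inside genes to 1.42 beyond 1 Mb, while the median fold stays between 3.11 and 3.38.

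Densities differed among autosomes. Chromosome 13 had 21.2 desert peaks per Mb of desert, chromosome 9 had 21.1 and chromosome 18 had 21.0. Chromosome 6 had 6.58 and chromosome 17 had 7.37. Density outside deserts spanned only 80.5 to 104 per Mb, so the autosomes differed more in their deserts than elsewhere. Counts of desert peaks ran from 59 on chromosome 19 to 561 on chromosome 3.

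**Figure D3:**
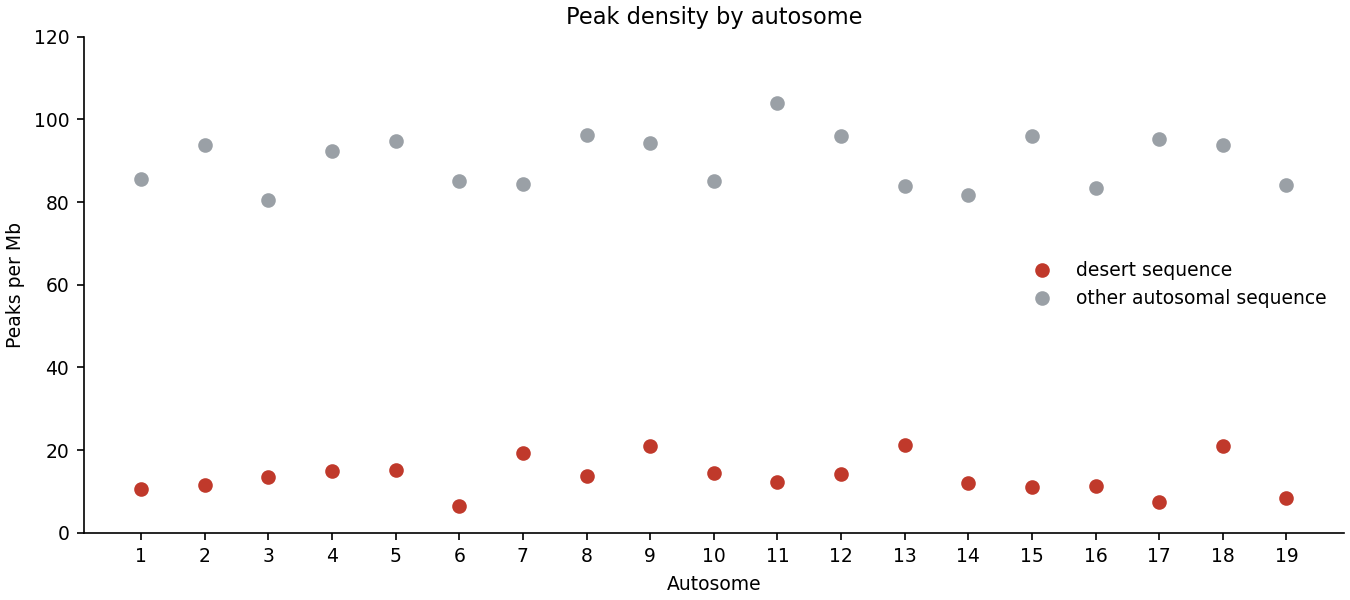
Peaks per Mb in deserts and in the rest of the annotated span, for each of the 19 autosomes. The desert value lies below the rest in all 19, from 6.58 on chromosome 6 to 21.2 on chromosome 13.

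A desert peak, once present, was about as high as other peaks but narrower. Median fold was 3.32 (quartiles 2.74 to 4.26, range 1.67 to 18.2) against 3.18 (2.60 to 4.22) for the rest of the autosomal peaks. It was above the rest in 17 autosomes and below in 2. Against the 15275 peaks at 50 to 200 kb, the nearest class outside the deserts, whose median was 3.25, it was above in 10 and below in 8. In all, 1618 of the 6253 desert peaks (25.9%, 24.8 to 27) reached the upper quartile of fold, 4.22, where 25.0% of all autosomal peaks are by construction, so their share was near the background. Median width was 507 bases (342 to 788) against 543 at 50 to 200 kb, lower in all 19 autosomes, and 559 in the rest. Median −log10 q was 11.4 against 13.1 in the rest, again lower in all 19. The authors' score was at its cap of 1000 in 2.40% of desert peaks and in 8.24% of the others. In fold the desert peaks lay close to other distal peaks, and in width and significance they lay below the rest.

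Peaks were spread over most deserts, but unevenly. Of the 730 deserts, 524 (71.8%, 68.4 to 74.9) held at least 1 desert peak, and 77 of these held exactly 1. The 206 deserts with none in the list were shorter, with a median length of 145 kb against 443 kb. The 94 deserts with more than 20 peaks held 3597 of the 6253 (57.5%) on 17.9% of desert length. The top 10 held 732 (11.7%) on 2.29% of the length. Long deserts were more often occupied and more thinly filled. Below 200 kb, 52.5% were occupied and the density was 41.0 per Mb. Above 2 Mb, 90.6% were occupied and the density was 3.73 per Mb. Over the 524 occupied deserts, length and peaks per Mb had a Spearman correlation of −0.592, which partly follows from length being in both measures.

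The most peaks lay between Rps24, a ribosomal protein gene, and Zmiz1, a transcriptional coregulator gene. This desert of 0.561 Mb held 109 peaks, 194 per Mb, which covered 15.2% of it, and 58 of them lay in lncRNA genes. Next came Kazn–Prdm2 with 84 peaks (179 per Mb) and Matn1–Ptpru with 73 (177 per Mb). Prdm2 encodes a histone methyltransferase of the PR domain family, and Ptpru a receptor tyrosine phosphatase. Mn1–Cryba4 held 65 peaks at 167 per Mb, and Cdh26–4930591A17Rik 64 at 121 per Mb. The other 5 of the top 10 were longer and less dense: Celf4–Pik3c3 with 72 peaks, Zfp608–Gramd3 with 69, Agtr1b–Tbl1xr1 with 67, Cdh11–Cdh5 with 65 and Usp25–Cxadr with 64, at 17.5 to 81.6 per Mb. Highest folds in these 10 deserts ran from 7.02 in Matn1–Ptpru to 14.3 in Zfp608–Gramd3. Median folds were 2.83 to 3.29 in the 5 denser deserts, below the 3.32 of all desert peaks, and 3.39 to 3.61 in the 5 longer ones, above it.

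Among deserts of at least 200 kb, Enc1–Arhgef28 was the densest, with 53 peaks at 216 per Mb. Rasgef1b–Vamp9 followed with 53 at 209 per Mb, all of them inside a lncRNA gene, and Foxo1–Cog6 with 47 at 203 per Mb. Foxo1 encodes a forkhead transcription factor downstream of insulin signalling, and Enc1 an actin-binding protein of neurons. At the other end, the longest deserts without a peak lay between Cdh6 and Cdh9 (3.15 Mb), Prmt6 and Amy2b (2.50 Mb), Cox7c and Edil3 (2.37 Mb), Adam6a and Zfp386 (2.10 Mb), and Lingo2 and 1700009N14Rik (2.10 Mb). Cdh6 and Cdh9 encode cadherins. The Adam6a–Zfp386 stretch holds 99 annotated V segments of the immunoglobulin heavy chain locus, which B cells rearrange. The longest of all deserts, Pcdh20–Pcdh9 between protocadherin genes, was named after its values were seen and held 2 peaks in 4.14 Mb. Of the 53 deserts of 2 Mb or more, 35 held fewer than 10 peaks.

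**Figure D4:**
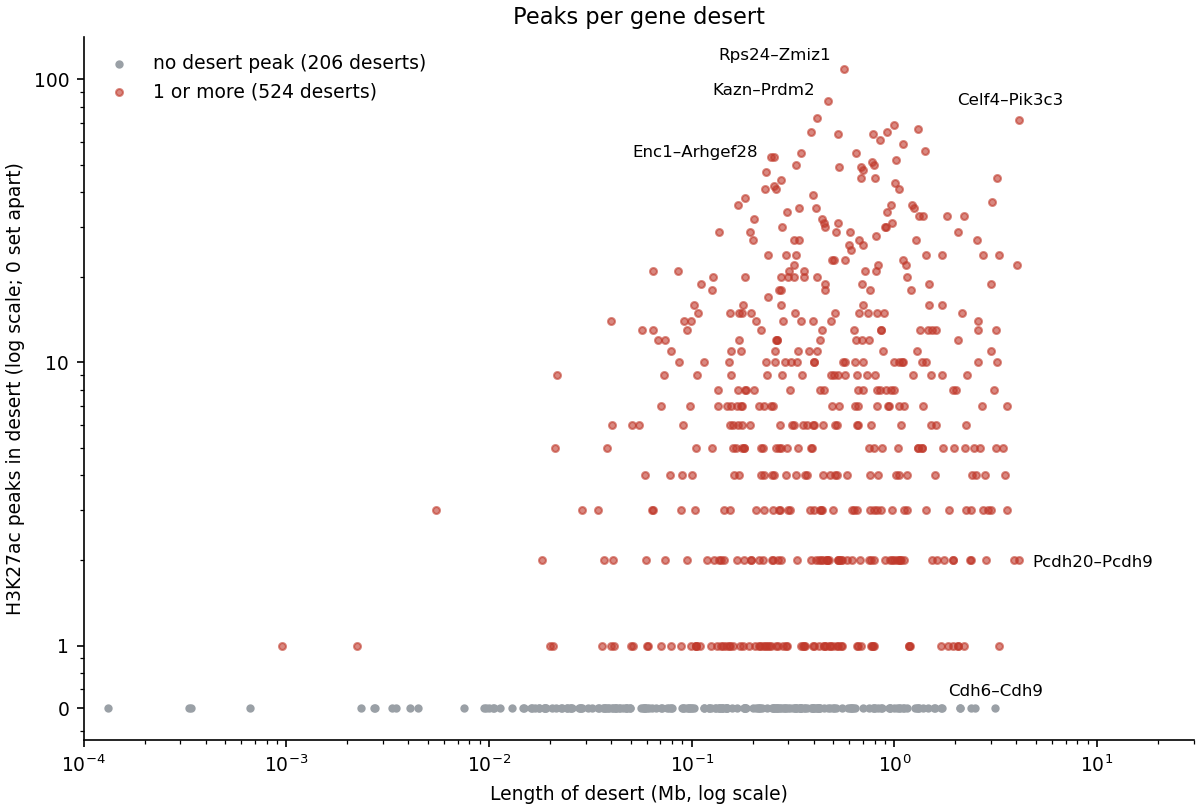
Desert length (x axis, Mb, log scale) and number of desert peaks (y axis, log scale with 0 set apart) for the 730 deserts. The 206 grey points hold no peak, and Rps24–Zmiz1 stands highest with 109 at 0.561 Mb while Pcdh20–Pcdh9 holds 2 over 4.14 Mb.

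Celf4–Pik3c3 was the densest of the 53 deserts of 2 Mb or more, with 72 peaks over 4.11 Mb of chromosome 18. It was the top of a range: its 17.5 per Mb compared with 12.2 in the 3042 kb desert beside Tenm2, which held 37. Celf4 encodes an RNA-binding protein of neurons and Pik3c3 a class III phosphatidylinositol kinase. Counted over successive Mb from Celf4, the Celf4–Pik3c3 desert held 8, 9, 18, 17 and 20 peaks, so its middle was not empty. The first and last steps hold less desert, since the gap is 4.51 Mb long and the outer 200 kb at each end are not desert. The 20 peaks of the last step lay at 4.006 to 4.300 Mb, so the desert was densest at its Pik3c3 end. The 5 desert peaks farthest from any coding gene all lay here, at 2185 to 2220 kb. Of these, 4 had folds of 2.67 to 3.76. The other one, chr18:28076931-28078747, had a fold of 13.1 over 1817 bases and lay in the lncRNA gene Gm33860, 2188 kb from the nearest coding gene.

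The highest fold of any desert peak was 18.2, at chr12:29290332-29291401, 236.5 kb from Myt1l, which encodes a neuronal zinc finger transcription factor. No annotated gene overlapped it. Next was chr18:8693503-8694609, with a fold of 17.1, in the lncRNA gene Gm35180, 518.5 kb from Fzd8, a Wnt receptor gene. The peak chr4:68022736-68023371 reached 16.7, 738.3 kb from Brinp1, and chr2:64325513-64326097 reached 16.5, 227.7 kb from Fign. Neither lay in an annotated gene. The other 6 of the top 10 had folds of 14.3 to 15.7. Of these, 5 had their summit in a lncRNA gene, Gm32810, Gm28905, 4930520P13Rik, Gm44689 or Gm41734. The other one overlapped the start of Celrr, with its summit just before the annotated gene. None of these 10 was wider than 1216 bases. The widest desert peaks, 2603 to 3176 bases, had folds of only 2.73 to 6.21. The widest lay at chr14:24769304-24772479 in Rps24–Zmiz1 with a fold of 3.77. Height and width thus picked out different peaks.

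Folds of the few peaks named nearest the limit were alike on both sides of it. The 3 peaks just inside it, 200066, 200121 and 200159 bases from Sox9, Fbxl7 and Dusp6, had folds of 2.77, 2.46 and 3.47. The 3 just outside, 199969, 199940 and 199899 bases from Cited2, Chd6 and Ankrd55, had 3.18, 2.46 and 3.07.

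Most desert peaks lay near another one. Another desert peak lay within 10 kb of 4738 of them (75.8%, 74.7 to 76.8), against 92.0% of all autosomal peaks with another peak that near and 85.0% at 50 to 200 kb. Density differs between these classes, and its part in the shares was not tested. Neighbouring peaks of a desert were a median of 5.84 kb apart (quartiles 1.52 to 22.7). Joined at 10 kb, they made 1221 clusters of 2 or more peaks, and 69 clusters of at least 10 held 1020 peaks. The largest, at chr5:111659258-111774588 in Mn1–Cryba4, had 31 peaks over 115 kb. Rasgef1b–Vamp9 had 27 over 94.6 kb, Enc1–Arhgef28 a pair of clusters with 25 each, and Gadd45g–Diras2 had 23 over 83.3 kb. Lone peaks were slightly higher and narrower: the 1515 of them had a median fold of 3.39 and width of 463 bases. All 4738 clustered ones together had 3.26 and 524 bases. Those in clusters of at least 10 had 3.07 and 559 bases.

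Many desert peaks lay in noncoding genes. The count was 1634 (26.1%, 25.1 to 27.2), of which 1594 were in lncRNA genes, against 11.1% of all autosomal peaks and 26.9% of peaks at 50 to 200 kb. The share was thus close to that of other distal peaks. Noncoding genes took 53.2 Mb, or 11.6%, of desert length, and held 30.7 desert peaks per Mb against 11.4 outside them. In all, 508 lncRNA genes held a desert peak. A930011G23Rik held 53 over 432 kb, with a highest fold of 7.66, and is the gene that fills Rasgef1b–Vamp9. Mir100hg held 42 with a highest fold of 10.4, 2610307P16Rik 36, Mir99ahg 33 with a highest fold of 12.2, and Gm30382 27. The rest of the top 10 were 6530403H02Rik with 21, Gm31870 with 18, Gm34799 with 17, and 5730522E02Rik and Gm32008 with 15 each, a count that Gm20754 shared.

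Peaks at annotated lncRNA starts stood above the other desert peaks, a comparison chosen after values were seen. Desert peaks overlapped 150 of the 1022 RefSeq start windows in deserts (14.7%), which belong to 136 genes. The share of all autosomal windows overlapped by any peak was not counted, so the 14.7% has no background here. In all, 136 desert peaks were involved. Their median fold was 4.27 (quartiles 3.32 to 5.76) against 3.32 (2.74 to 4.26) for the remaining desert peaks, higher in 17 of 18 autosomes with such a peak. The autosome without one was chromosome 18, whose 451 desert peaks all count among the remaining ones. Whether the windows used cover that chromosome is not known here. Of the 136, 69 (50.7%) reached the upper quartile of fold, against 25.3% of the remaining ones. They were also wider, 767 against 502 bases. A wider peak overlaps a window more readily, and how much of the width difference follows from this choice was not tested. Peaks at start windows made up only 2.17% of desert peaks and 8 of the 100 highest, so most high desert peaks lay away from the start windows used.

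Marked desert starts differed in composition from unmarked ones and from starts in general. Median GC content was 49.0% in the 150 overlapped windows, 43.0% in the 872 not overlapped and 53.0% over all 31396 autosomal windows, with medians of 4, 2 and 7 CpG. At least 10 CpG were present in 11.3%, 3.90% and 44.0%. The E-box CAGCTG was in 30.0% of overlapped windows, 13.1% of unmarked ones and 16.3% of all. The GC-box GGGCGG was in 6.67%, 3.78% and 36.0%. The SOX motif ACAATG was in 28.0%, 22.8% and 12.2%, the homeodomain motif TAATTA in 8.0%, 10.6% and 5.27%, and the CRE TGACGTCA in 2.00%, 0.459% and 1.83%. Shares for CCAAT were 37.3%, 41.6% and 37.3%, and for the RFX motif GTTGCNNNG 16.0%, 12.7% and 13.6%. The AP-1 motif TGANTCA was in 9.33%, 11% and 7.84%, TATAAA in 16.7%, 23.9% and 13.6%, the ETS motif CCGGAAG in 0.667%, 1.72% and 9.0%, and the NFI motif TTGGCA in 16.7%, 18.8% and 14.1%. Both strands were read and motifs could overlap. A match says only that the letters are present.

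The coding genes beside deserts were often developmental transcription factors and neuronal adhesion genes, and desert peaks differed between them. Lists of both kinds were chosen with earlier results known. Transcription factors of the list were 8.12% of the 1280 flanking genes against 2.05% of all autosomal coding genes. They flanked 115 deserts with 1221 desert peaks (19.5%, 18.6 to 20.5) on 12.5% of desert length, at 21.4 per Mb against 12.6 in the other deserts, higher in 11 of 19 autosomes. The symbols matched also took in Lmo7, which is not a transcription factor, and without it the count was 1211 (19.4%). No other gene was left out, and Prdm2, named above as a histone methyltransferase gene, stayed in the list. Sox2, which maintains neural progenitors, flanked 84 peaks in 2 deserts, Prdm2 84 and Foxo1 47. Adhesion and guidance genes were 7.34% of flanking genes against 1.33% of all. They flanked 122 deserts with 1042 peaks (16.7%) on 34.9% of the length, at 6.52 per Mb against 17.5, higher in 2 of 18 autosomes. Their deserts were longer, with a median of 953 kb against 294 kb, and the part of length in the density was not tested. The most peaks of that list lay beside Cdh11, with 69. Of these, 65 lie in the desert that Cdh11 shares with Cdh5, the cadherin of endothelial cells, and are also the 65 of Cdh5. Next came Cdh26 and the ephrin receptor gene Epha4, with 64 each.

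Channel and neurotransmitter receptor genes were also more frequent beside deserts, 4.22% of flanking genes against 1.83% of all. They flanked 56 deserts with 297 peaks (4.75%) on 7.19% of the length, at 9.02 per Mb against 14.0, higher in 5 of 18 autosomes. The list, matched by gene symbol, also took in Trps1, a transcription factor gene. Without it there were 54 deserts with 296 peaks (4.73%), at 9.55 per Mb against 13.9. Galr1, a galanin receptor gene, flanked 43, Mc2r, the ACTH receptor gene, 29, and Gria1, an AMPA receptor subunit gene, 23. Galr1 shares its desert with Sall3 and Mc2r shares its desert with Tcf4, so these 43 and 29 peaks also count for the transcription factor list. Growth factor and morphogen genes were 1.48% of flanking genes against 0.691% of all. They flanked 22 deserts with 64 peaks (1.02%) on 1.23% of the length, at 11.4 per Mb against 13.7, higher in 3 of 14 autosomes. Shh, which patterns the ventral neural tube, flanked 24, the chemokine gene Cxcl12 13 and Pdgfc 6. Olfactory and vomeronasal receptor genes, 7.18% of coding genes, were 0.312% of flanking genes. Their 3 deserts held 2 peaks, both beside Olfr1505, and none lay beside Vmn2r40 or Vmn2r45.

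The share of flanking genes with a peak at their own ends was higher beside well-filled deserts. Within 1 kb of either end, 67.5% of the 385 genes flanking deserts without a peak had one. The share was 77.5% beside deserts with 1 to 5 desert peaks, 82.6% with 6 to 20 and 83.7% of 184 genes with more than 20. Over all 20560 autosomal coding genes it was 71.3%. The gene ends lay outside the deserts, so these peaks were not desert peaks themselves.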

How the data were processed

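H3K27ac CUT&Tag of mouse hypothalamus was analysed from 1 deposited peak list of 3 bulk samples, grouped by their titles. The submitters' processing notes list mm10 as the build and, without roles, UMI-tools 1.1.4, STAR 2.7.10a, cutadapt 4.5, BWA 0.7.17 and MACS2. Neither the way the replicates were combined nor any blacklist filter is stated. Per peak, the authors deposited a score, a fold ratio, the −log10 of p and of q, and the summit's offset. Columns carry no header and were read in narrowPeak order. Peak numbers run beyond the number of lines, so some called peaks may be missing from the list, and a desert without a peak had none in it. Depth is unknown.

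Deserts were stretches over 200 kb from every protein-coding span of RefSeq GRCm38.p6. Gene rows starting below 3 Mb (328, of which 105 were protein-coding) were left out, since the first autosomal peak starts at 3048686. Densities used the span from first to last gene. Wilson intervals at 95% cover counting error only. Named peaks and deserts were the highest, widest, farthest, fullest, densest and longest empty ones, and for lists the 3 flanking genes with most peaks. The members and lists were chosen with earlier results of these data known. Alternatives changed the limit, the genes that bound deserts, the peaks kept and the joining distance. Distances and clusters were tested on simulated data. Python 3.11.15, pandas 2.3.3, NumPy 2.4.6, SciPy 1.17.1 and matplotlib 3.10.9 were used.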

Additional observations from a re-analysis of the deposited data

How the results depend on the processing

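Of 41 alternative values, 16 stayed within their interval or within 1.5 times the main count, and 25 did not. With a limit of 100 kb, 13301 peaks qualified, the density ratio was 0.211, median fold 3.27, 79.6% were clustered and 17.6% lay beside listed transcription factors. At 500 kb, 913 qualified, with a ratio of 0.0553, 61.7% of deserts occupied, 60.7% clustered, 19.8% in noncoding genes and 14.3% beside those factors. Peaks above the median −log10 q gave 2704, a ratio of 0.132, a fold of 4.51 against 4.23 in the rest, 59.3% occupied, 55.4% clustered and 29.0% in noncoding genes. With every annotated gene as a bound, 216 qualified, with a ratio of 0.0488 and 25.1% of deserts occupied. Without predicted genes the ratio was 0.148, and with gene rows below 3 Mb kept, an alternative chosen after seeing the data, it was 0.143. Leaving Trps1 and Lmo7 out of their lists was also chosen after seeing the data. Joining within 5 or 25 kb gave 64.2% or 85.2% clustered, and any overlap gave 27.5% in noncoding genes. The density ratio stayed below 1 under each of its 6 alternatives. The cause of each shift was not tested. Replicates could not be left out in turn. No paired analysis was possible because the list pools the 3 samples.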
